A study of Mus musculus with 12 samples.

Results

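The response of partially reprogrammed mouse cells to ascorbic acid given together with the 2i inhibitors was measured across all genes. The comparison set the 3 libraries labelled AA+2i (RepA, RepB and RepC) against the 3 labelled DMSO, the solvent control, that is 6 of the 12 RNA-seq libraries of the series. The other libraries received AA alone or 2i alone and entered the fit without being compared for their own sake. The cells were a pre-iPSC line, that is, a clonal line stalled between fibroblast and induced pluripotent stem cell. Such lines come from fibroblasts that carry a green fluorescent protein at Nanog and were transduced with retroviral Oct4, Sox2, c-Myc and Klf4, so reads from the viral and the cellular copies of those 4 genes share coding sequence and cannot be told apart here. Treated and control cells alike were in embryonic stem cell medium with serum and had been taken off their feeder layer. AA+2i was 50 μg per ml ascorbic acid, 1 μM of a MEK inhibitor and 3 μM of a GSK inhibitor, and RNA was taken after 48 h (day 2). One clonal line limits the values to that clone.

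Ascorbic acid is a cofactor of iron and 2-oxoglutarate dependent dioxygenases, among them the TET enzymes, which oxidise methylated cytosine, and the Jumonji histone demethylases. The MEK inhibitor blocks the kinase that activates ERK, downstream of FGF and EGF receptors. The GSK inhibitor stabilises β-catenin, the effector of Wnt signalling, which acts on genes through TCF and LEF proteins. Together the inhibitors hold mouse embryonic stem cells in the naive state, the state with Nanog, Esrrb, Klf2 and Tfcp2l1 (listed as Tcfcp2l1) in use.

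Expected counts summed to between 16173322 and 49270873 per DMSO library and between 19521753 and 23653287 per AA+2i library. The libraries differed in how reads varied with the GC content of transcripts. At 65% GC, DMSO A was 2.45 log2 units below the mean of the libraries (deviation -2.45) and AA+2i C was 1.78 above it. DMSO B stood apart in the transduced genes, with Pou5f1 (Oct4) at 9673 TPM, transcripts scaled to a common library total, against 1865 in DMSO A and 3795 in DMSO C, and with the highest Klf4, Myc and Sox2 of the 3 DMSO libraries. Counts of calls are given for the fit with the replicate letter as a block, which the comparison specifies, and the counts over all genes also for the genes that passed in 1 direction under 3 fits, namely with the block, without it, and with the block after a correction for GC content. Below, rose and fell mean an adjusted p under 0.05 in the fit with the block, and values are TPM in the order A, B, C unless stated otherwise.

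The labelled cell type was checked against its markers. Cdh1 (E-cadherin) and Epcam, both epithelial, were present in all 6 libraries, at 31.8 TPM or more, and Sall4, a stem cell zinc finger factor, stood between 33.6 and 45.3. Lin28a, an RNA-binding protein of pluripotent cells, was at most 2.44 TPM in control and treated cells. Fut4, also looked for as a marker of such cells, was nearly absent, at or under 0.12 TPM in all 6 libraries. In DMSO the naive genes Nanog, Esrrb, Zfp42 and Dppa3 were at or under 7.14 TPM. The fibroblast genes Lum, Dcn and Postn were at or under 0.32 TPM in every library, and Col1a1 at or under 2.14. Other fibroblast and mesenchymal genes were in use, Vim and S100a4 among them. Of the 30 genes of that list 7 were under 1 TPM in all 6 libraries. The summed TPM of the list was 2636 to 3696 in DMSO. Thy1 was between 2.17 and 7.21. Of 14 haematopoietic and immune markers, 12 were below 1 TPM in all 6 libraries, and none of the 3 tested was called. The 2 others were present in every library, the macrophage marker Cd68 at 10.3, 28.7 and 9.87 TPM in DMSO and 16.3, 17.0 and 12.1 in AA+2i, and the lysosomal membrane gene Laptm5 at 20.8, 72.4 and 41.5 in DMSO and 24.4, 18.4 and 17.7 in AA+2i.

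With AA+2i, 2051 of 13400 tested genes rose and 2178 fell, which is 15.3% and 16.3% of the tested genes, together 31.6%. A change of at least 2-fold was reached by 1268 rising and 843 falling genes with the block, by 819 and 960 after GC correction with the block, and by 446 and 484 of those called in all 3 fits, so rises outnumbered falls only in the first of these 3 pairs. Without the block 526 rose (3.93%) and 591 fell (4.41%), together 8.34% of tested genes. In all 3 fits 498 rose (3.72%) and 585 fell (4.37%), together 8.08%. The counts of each gene list below are to be read beside these shares of all tested genes. Each of these 498 and 585 genes moved the same way in the 3 letters, as did 1930 of the rising and 2138 of the falling genes of the fit with the block. Passing the fits on the same libraries favours such genes, so this is no separate support. The 3 AA+2i libraries were all above the 3 DMSO libraries in TPM for 9.6% of tested genes and all below for 22.5%. The TPM scale and the count scale differed, since the median of all genes moved by -0.15 on log2(TPM + 1) and by 0.01 in the fit, and limma on log2(TPM + 1) called 1167 genes up and 3400 down.

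The counts depended on the replicates. When letter B was left out, 4 genes rose and 14 fell in all 3 fits. Without letter A these numbers were 315 and 346, and without letter C 162 and 115. Genes that rose had a higher GC content than genes that fell, with medians of 54.8% and 46.8% of the transcript, and the difference was smaller in all 3 fits, at 51.2% and 49.2%, against 51.0% for all tested genes. After GC correction with the block 1389 of the rises and 1784 of the falls were called again in the same direction, and 0 were called in the opposite one.

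Calls in all 3 fits were found at every level of expression, but made up a larger share of the genes below 10 TPM than of those above. Among the 1621 genes with a mean under 1 TPM over the 6 libraries, 135 rose and 108 fell in all 3 fits. Of the 3122 genes from 1 to 10 TPM, 209 rose and 235 fell, and of the 6930 from 10 to 100 TPM, 137 rose and 196 fell. For the 1727 genes at 100 TPM or more the counts were 17 and 46. The rises reached further, with 139 rising and 62 falling genes past 8-fold (a log2 change of 3) in all 3 fits.

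**Figure D1:**
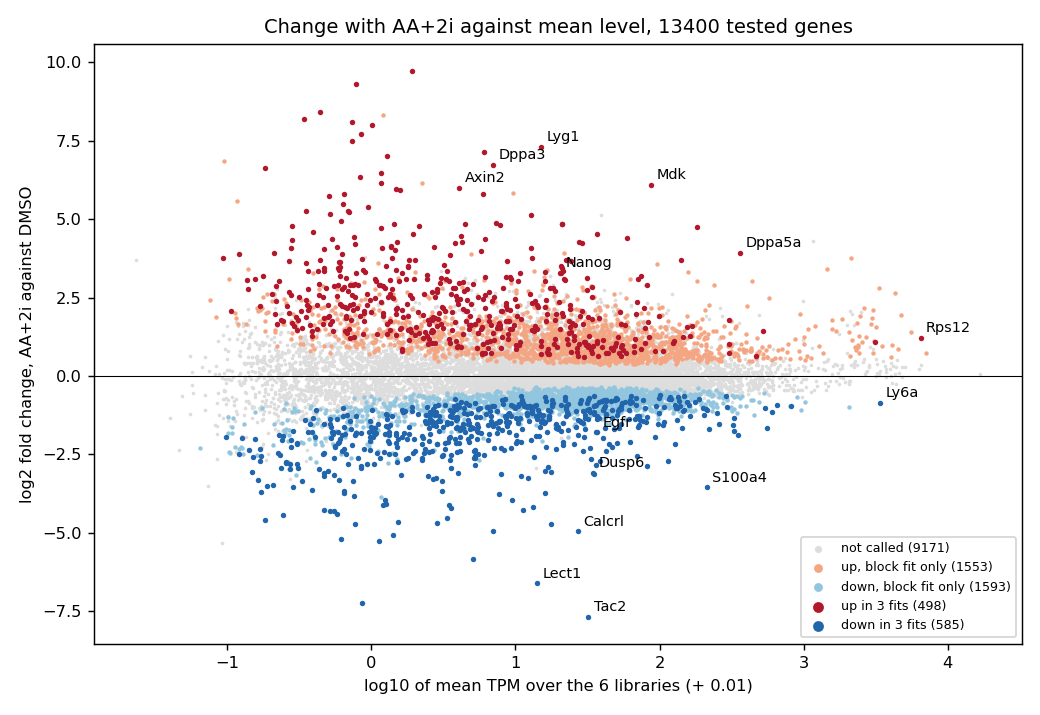
Log2 fold change with AA+2i against DMSO (y axis) by the mean TPM of the 6 libraries (x axis, log10), 1 point per tested gene. Dark red and dark blue mark the 498 rising and 585 falling genes called in 3 fits, pale colours the genes called in the fit with the block only, and the largest changes lie among genes of low to middle level.

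The largest rise among genes that reached 5 TPM was that of Lyg1, a gene of the goose-type lysozyme family (NCBIM37, mm9, chr1:38003581-38014604, minus strand). Lyg1 was at 0.16, 0.12 and 0.47 in DMSO and at 25.6, 31.7 and 32.9 in AA+2i, a log2 change of 7.31 ± 0.36 (SE, n = 3 against 3, edgeR adjusted p = 9.85e-06). Its levels were tight in the treated cells and near nothing in the controls. Dppa3 (Stella), a maternal and germ cell factor that protects DNA methylation, went from 0.16, 0.06 and 0.30 to 9.18, 12.8 and 19.4, with a log2 change of 6.74 ± 0.40 (edgeR adjusted p = 1.52e-05). Mdk, the heparin-binding growth factor midkine, read 0.36, 7.40 and 2.55 in DMSO and 153, 79.3 and 285 in AA+2i. The DMSO values of Mdk were spread widely, yet all lay well under the treated ones, and the log2 change was 6.10 ± 0.86 (edgeR adjusted p = 0.0012).

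Further large rises included Serpina3m, a serine protease inhibitor, at 0.00, 0.08 and 0.22 in DMSO and 11.3, 13.9 and 10.8 in AA+2i. It belongs to a cluster of close copies, so part of its reads may come from a neighbour. The zinc transporter Slc30a2 rose by 5.13, the fatty acid binding protein Fabp3 by 4.54, the protease inhibitor Slpi by 4.81 and the muscle myosin light chain Mylpf by 4.74 on the log2 scale. Mylpf was at 6.31, 13.1 and 32.2 in DMSO and at 236, 314 and 497 in AA+2i, which also placed it among the largest gains in TPM. The cornified envelope genes Sprr2a1 and Sprr2a2 had identical values in every library, since their reads are shared, and rose by 4.84 as 1 signal. The remaining large rises were those of Axin2, Sp5 and Tnfrsf19, described with the Wnt genes below, and of 1700084C01Rik and A330049M08Rik, which have no established role. AA+2i C was the highest of the treated libraries for all of these genes except Serpina3m and 1700084C01Rik, with Fabp3 at 23.7, 29.5 and 157. The groups did not overlap for any of these 15 genes, which their selection for large and consistent rises favours. Of all tested genes 9.6% lay wholly above DMSO in TPM.

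The largest fall was that of Tac2, the precursor of neurokinin B (chr10:127162448-127168823, plus strand). It stood at 49.0, 90.5 and 52.1 in DMSO and at 0.15, 0.37 and 0.23 in AA+2i, a log2 change of -7.67 ± 0.27 (edgeR adjusted p = 1.84e-06). Lect1 (chondromodulin), an inhibitor of vessel growth, went from 20.1, 38.2 and 25.7 to 0.42, 0.17 and 0.16, a log2 change of -6.60 ± 0.35. St8sia2, which adds polysialic acid to cell adhesion proteins, went from 8.28, 12 and 9.72 to 0.18, 0.09 and 0.19. These 3 genes were in use in every control library and almost silent in every treated one. Calcrl, the receptor for adrenomedullin and calcitonin gene-related peptide, was at 81.2, 54.8 and 21.6 in DMSO and at 1.94, 1.84 and 0.56 in AA+2i, a log2 change of -4.95 ± 0.24. Tph1, the rate-limiting enzyme of peripheral serotonin synthesis, fell by 4.72, the γ-aminobutyric acid receptor subunit Gabra2 by 4.17, the natriuretic peptide precursor Nppb by 3.76 and the serine protease Prss23 by 3.73 on the log2 scale. The other 7 large falls, Slc35d3, Tcerg1l, Upk1b, Vat1l, Fgl2, Efcab1 and Hs3st3a1, lay between -4.93 and -3.94. None of the 15 overlapped between groups, which their selection likewise favours, and 22.5% of all tested genes lay wholly below DMSO in TPM.

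**Figure D2:**
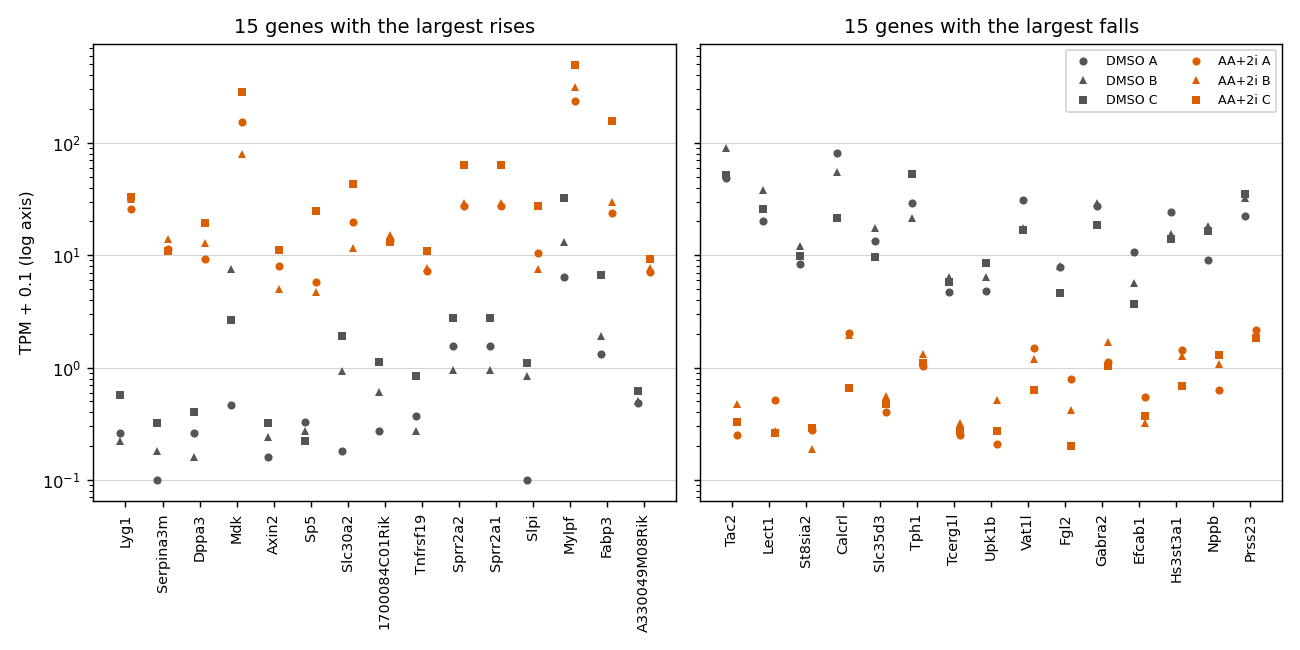
TPM + 0.1 on a log axis in each DMSO (grey) and AA+2i (orange) library for the 15 genes with the largest rises (left) and falls (right) that reached 5 TPM, with circles, triangles and squares for letters A, B and C. For every gene the 3 orange points lie wholly above or wholly below the 3 grey ones, which the selection of these genes favours. Tac2 shows the widest gap of the falls.

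By amount of RNA, the largest gains among genes called both with and without the block were in the ribosomal protein genes Rps12 and Rpl12. Rps12 read 3715, 4560 and 4680 in DMSO and 8437, 7358 and 10145 in AA+2i, with a log2 change of 1.22 ± 0.23. Both genes have many processed copies in the genome, so their reads may be shared. Dppa5a, an RNA-binding protein of pluripotent cells, went from 45.1, 35.6 and 78.8 to 511, 763 and 747, a log2 change of 3.93 ± 0.26 (edgeR adjusted p = 2.79e-05). The acetyltransferase-like Cml3 rose by 1.44, the actin regulator Coro1b by 1.78 (0.99 after GC correction) and the glutathione transferase Gstp2 by 3.69, the last having a close copy in Gstp1. The uncharacterised 1500012F01Rik rose by 1.37 with the block but was not called after the GC correction (log2 change 0.70, edgeR adjusted p = 0.175).

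The largest loss in TPM among genes called both with and without the block was that of Ly6a. Ly6a (Sca-1), a surface protein of somatic progenitors, was at 4104, 4850 and 4884 in DMSO and at 1789, 2447 and 2402 in AA+2i, a log2 change of -0.85 ± 0.16. Its relative Ly6c1 fell by 1.16. Klk1, tissue kallikrein, went from 486, 1051 and 1103 to 217, 249 and 227. The ectonucleotidase Enpp3 fell by 0.94, the membrane protein Itm2b by 0.93, the glutamine transporter Slc38a5 by 1.89, the stress granule protein G3bp2 by 1.03 and the surface antigen Cd109, a TGF-β co-receptor, by 1.76. All 8 fell in all 3 fits.

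Of 18 tested naive pluripotency factors 8 rose, and the transduced Pou5f1, Sox2 and Klf4 among them were not called. Of the 8, 7 rose in all 3 fits, and 1 factor fell, with a median log2 change of 1.46 against 0.01 for all genes. The median was 0.80 after GC correction. Nanog, the homeodomain factor at the centre of the naive network, was at 2.93, 3.16 and 7.14 in DMSO and at 37.1, 40.9 and 31.7 in AA+2i, a log2 change of 3.29 ± 0.34 (edgeR adjusted p = 0.000236). Tcfcp2l1 went from 10.2, 7.84 and 8.89 to 65.3, 61.6 and 33.8 and Klf2, a Krüppel-like factor, from 5.98, 6.45 and 7.35 to 41.5, 32.5 and 95.4. These 3 factors were above the DMSO range in every treated library. Esrrb, an orphan nuclear receptor, rose by 3.77 ± 0.34, but only to 2.33, 2.53 and 2.73 TPM. Tbx3, a T-box repressor, reached 1.79, 1.51 and 4.95 TPM from 0.15 or less, and Prdm14 stayed at or below 0.55 TPM although it rose. Zfp42 (Rex1) rose by 1.75, to between 5.79 and 7.34 TPM. Zfp281, a zinc finger protein of primed cells, fell by 0.81. Klf4 was at 34.1, 530 and 142 in DMSO and at 237, 156 and 457 in AA+2i, a log2 change of 1.17 ± 0.75 that did not pass (edgeR adjusted p = 0.238). The change of Klf4 was 0.11 after GC correction, 0.09 without letter A, and 2.48 without letter B, where it passed (edgeR adjusted p = 0.0059).

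Among 25 tested genes otherwise associated with pluripotency, 10 rose (9 in all 3 fits) and 3 fell. The TGF-β family ligand Gdf3 went from 2.12, 4.34 and 4.98 to 38.3, 40.4 and 44.6, a log2 change of 3.71 ± 0.22. Dppa2, Dppa4 and Tex19.1, which are methylated and silent in somatic cells, rose by 3.11, 3.02 and 3.14 but reached at most 6.54 TPM. Tdh, the threonine dehydrogenase of mouse embryonic stem cells, rose from 64.5, 112 and 117 to 185, 177 and 221. The 3 that fell were Fgf4, a ligand made by pluripotent cells (-0.78), the methylcytosine dioxygenase Tet1 (-1.21) and the RNA-binding L1td1 (-0.96), of which Fgf4 alone fell in all 3 fits. Of 7 tested germline genes, the X-linked homeobox genes Rhox6 and Rhox9 rose in all 3 fits, from at most 11.7 TPM to at least 27.8 TPM. They are near copies of each other.

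Promoter windows of Nanog and Zfp42 are shown because both hold an octamer core (ATGCAAA, searched on both strands and given in capitals), the letters that POU factors such as Oct4 bind. Windows run from 250 bases before the gene start to 50 after it, are written 5′ to 3′ on the gene strand, and come from RefSeq on GRCm38.p6. Nanog lies at chr6:122707239-122707538 on the plus strand and Zfp42 at chr8:43306960-43307259 on the minus strand.
Nanog: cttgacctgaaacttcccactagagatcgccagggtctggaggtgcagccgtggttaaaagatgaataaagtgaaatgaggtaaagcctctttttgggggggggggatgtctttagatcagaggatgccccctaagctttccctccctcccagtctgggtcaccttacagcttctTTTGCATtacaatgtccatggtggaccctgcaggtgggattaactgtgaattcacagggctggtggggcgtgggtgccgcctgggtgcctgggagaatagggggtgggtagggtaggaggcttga
Zfp42: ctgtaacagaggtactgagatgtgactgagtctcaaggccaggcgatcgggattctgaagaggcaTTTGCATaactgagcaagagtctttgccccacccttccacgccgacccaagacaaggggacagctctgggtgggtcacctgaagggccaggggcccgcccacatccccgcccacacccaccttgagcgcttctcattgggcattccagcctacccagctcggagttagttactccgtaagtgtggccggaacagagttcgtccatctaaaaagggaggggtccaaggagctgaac
In both windows the capitals are the reverse complement, starting 75 bases before the gene start in Nanog and 185 before it in Zfp42. The octamer core was held by 3.76% of 372 promoters of genes rising in all 3 fits, by 3.99% of 451 promoters of genes falling in all 3 fits and by 3.35% of all 10689 promoters matched. With the block alone the shares were 3.34% of 1618 rising and 2.83% of 1729 falling promoters.

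Most tested genes of the Wnt list rose, and 7 of the 28 genes listed were under 1 TPM in all 6 libraries. Of 23 tested Wnt targets and feedback genes, 14 rose, 11 of them in all 3 fits, and 2 fell in all 3, with a median log2 change of 1.79 (1.80 after GC correction). Axin2, a feedback inhibitor of β-catenin, was at 0.06, 0.14 and 0.22 in DMSO and at 7.96, 4.95 and 11.1 in AA+2i, a log2 change of 6.0 ± 0.36 (edgeR adjusted p = 1.52e-05). Sp5, a zinc finger repressor induced by Wnt, went from 0.23, 0.17 and 0.12 to 5.71, 4.63 and 24.7, and Tnfrsf19 (Troy), a receptor of the tumour necrosis factor family, from 0.27, 0.17 and 0.74 to 7.14, 7.55 and 10.9. Their control values were close to 0. Wnt8a, a Wnt ligand of early embryos, rose by 4.24 ± 0.28 to 52.8, 53.5 and 57.9 TPM, the highest level among the rising targets called in all 3 fits. The homeobox gene Msx2 rose by 4.23 and Zfp703, a transcriptional repressor, by 2.79. The secreted antagonist Dkk1, with 3 counts in all DMSO libraries together, reached 0.66, 0.79 and 7.29 TPM, and the homeobox gene Cdx1, with 1 count, reached 0.57, 0.37 and 2.79. In Sp5, Dkk1 and Cdx1 the value of AA+2i C was well above those of A and B. The 2 that fell were Wif1, a secreted Wnt inhibitor (-2.66), and the receptor Fzd7 (-0.81).

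The window of Sp5 and that of Tac2, the gene with the largest fall, both hold the TCF/LEF letters ATCAAAG. They are shown because a match stands in genes that moved in opposite directions. Sp5 lies at chr2:70474673-70474972 and Tac2 at chr10:127724228-127724527, both on the plus strand of GRCm38.p6, from RefSeq.
Sp5: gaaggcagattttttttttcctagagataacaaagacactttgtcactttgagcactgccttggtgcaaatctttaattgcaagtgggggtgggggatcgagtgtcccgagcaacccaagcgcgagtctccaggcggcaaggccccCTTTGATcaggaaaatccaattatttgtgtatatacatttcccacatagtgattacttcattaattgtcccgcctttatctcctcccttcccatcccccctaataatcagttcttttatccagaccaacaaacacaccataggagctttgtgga
Tac2: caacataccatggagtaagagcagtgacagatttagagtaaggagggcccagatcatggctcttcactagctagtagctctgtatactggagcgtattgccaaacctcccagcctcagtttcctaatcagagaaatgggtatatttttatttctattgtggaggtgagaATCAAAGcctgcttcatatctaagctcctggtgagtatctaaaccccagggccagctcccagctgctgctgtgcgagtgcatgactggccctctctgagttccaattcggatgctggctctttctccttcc
The match lies 104 bases before the start of Sp5, as the reverse complement, and 81 before that of Tac2. ATCAAAG was held by 1.88% of promoters of genes rising in all 3 fits, 3.99% of those falling in all 3 fits and 2.49% of all, and with the block alone by 2.35% and 2.37% of rising and falling promoters. Of 10 rising Wnt targets with a window, Sp5 alone held it. CCGGAAG, bound by ETS factors, was held by 5.38% of promoters of rising and 5.76% of falling genes in all 3 fits against 17.5% of all, but by 16.9% and 13.1% with the block alone. The AP-1 letters TGANTCA stood at 6.99%, 5.99% and 5.01%, the Esrrb core TCAAGGT at 2.96%, 0.665% and 2.4%, and the E-box CACGTG at 9.95%, 5.32% and 9.98% in the same order. With the block alone the rising and falling shares were 5.07% and 4.97% for AP-1, 2.41% and 1.16% for the Esrrb core, and 12.5% and 8.68% for the E-box. A match describes letters in the window and no more.

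Several feedback genes of the ERK pathway fell. Of 24 tested ERK feedback and immediate early genes, 9 fell (7 in all 3 fits) and 1 rose, and the median log2 change was -0.53. Dusp6, the phosphatase that inactivates ERK in the cytoplasm, was at 72.5, 58.1 and 56.9 in DMSO and at 6.22, 6.19 and 6.63 in AA+2i, a log2 change of -3.08 ± 0.17 (edgeR adjusted p = 1.52e-05). Its nuclear relative Dusp4 went from 27.8, 37.5 and 31.1 to 3.78, 3.02 and 3.26. Both were tight within each group. The receptor signalling inhibitors Spry1, Spry4 and Spred1 fell by 2.18, 1.08 and 2.10, the ETS factor Etv1 by 1.88 and cyclin D1 (Ccnd1) by 1.02 in all 3 fits.

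The immediate early genes did not follow them. Egr1, a zinc finger factor induced by serum within minutes, was at 63.7, 116 and 31.9 in DMSO and at 0.35, 12.6 and 54.8 in AA+2i, so the groups overlapped and the log2 change of -2.23 ± 1.27 did not pass (edgeR adjusted p = 0.192). Fos read 43.5, 105 and 22.2 against 6.99, 39.3 and 167, and Junb, another AP-1 subunit, 4.31, 51.8 and 9.94 against 41.9, 10.5 and 263. Fos, Fosb, Jun, Junb, Ier2 and Egr1 were all highest in library C among the treated libraries, whereas among the controls all 6 were highest in library B. Jun was the 1 gene of the list that rose (2.15 ± 0.49), from 4.67, 12.8 and 6.99 to 17.3, 17.2 and 88.3, and it was not called without the block (edgeR adjusted p = 0.0792).

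**Figure D3:**
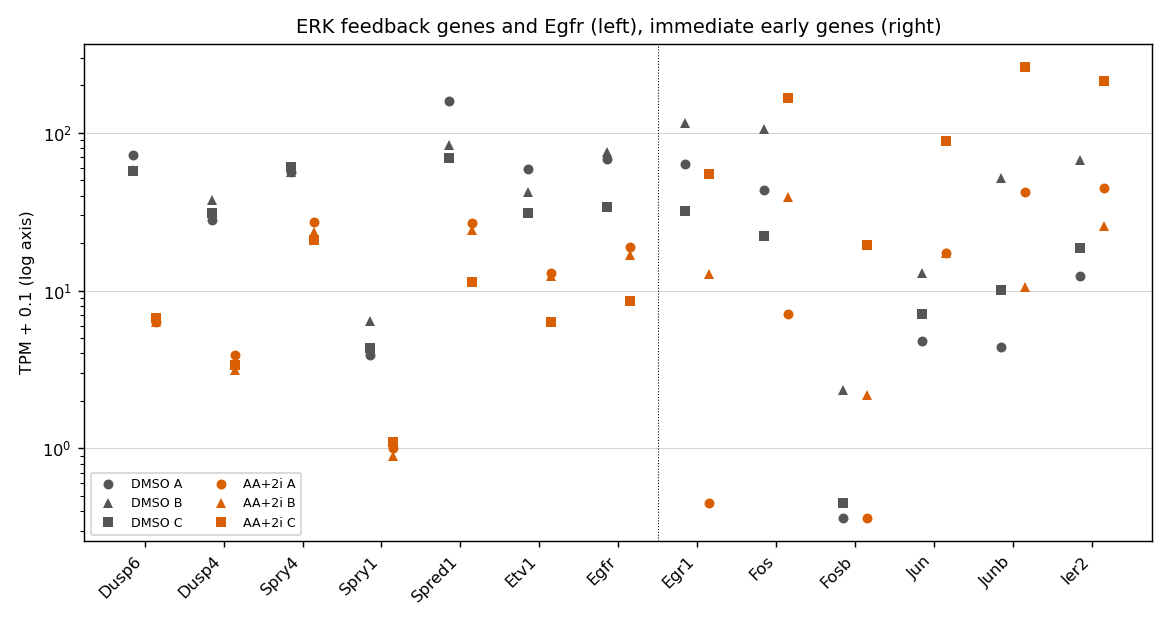
TPM + 0.1 (log axis) of 6 ERK feedback genes and Egfr (left of the dotted line) and 6 immediate early genes (right) in each DMSO (grey) and AA+2i (orange) library, with circles, triangles and squares for letters A, B and C. The 6 feedback genes shown were picked from those that fell in all 3 fits, and they separate by treatment. Of the 24 tested genes of the list 9 fell. The immediate early genes shown scatter between libraries of 1 group and, apart from Jun, overlap.

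Of 11 tested EGF receptor and ligand genes none rose and 6 fell, 5 of them in all 3 fits. Egfr went from 68.3, 75.8 and 33.8 to 18.8, 16.6 and 8.51, a log2 change of -1.80 ± 0.16 (edgeR adjusted p = 0.000118). The ligands Nrg1, Ereg, Hbegf and Areg fell by 4.67, 2.81, 2.62 and 1.78. Nrg1 was at 1.81, 3.29 and 3.68 in DMSO and at 0.14, 0.08 and 0.07 in AA+2i, and Areg, the most abundant ligand of these, at 13.5, 13.1 and 17.1 against 3.02, 3.75 and 4.01. Btc fell with the block by 1.45 but not after GC correction.

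Among 20 TGF-β genes tested, 4 fell and 3 rose (3 and 2 in all 3 fits), shares near the 16.3% and 15.3% of all genes. The ligand Tgfb2 went from 12.4, 10.9 and 4.79 to 1.37, 1.12 and 0.75, the latent binding protein Ltbp1 fell by 2.27 ± 0.19 and the receptor Tgfbr2 by 1.42 ± 0.12, from 41.5, 47.4 and 37.8 to 16.2, 13.5 and 11.5. The Nodal antagonists Lefty1 and Lefty2, which are close copies, rose by 3.51 and 1.5, to at most 3.59 TPM. Of 12 genes of the insulin-like growth factor axis 4 fell and 1 rose (2 and 1 in all 3 fits). Igf2 rose by 2.37 ± 0.22, from 5.82, 5.24 and 9.28 to 23.1, 18.8 and 59.0. The receptor Igf1r fell by 1.92 and the binding protein Igfbp3 by 1.67 ± 0.16, from 62.3, 100 and 84.6 to 20.7, 21.1 and 24.4. Of 6 tested FGF ligands and receptors 2 fell and 1 rose, and Fgf4 and Fgfr3 fell in all 3 fits. Of 14 BMP and Id genes, 5 fell and 3 rose with the block, and 2 fell and 1 rose in all 3 fits. Over all tested genes 16.3% fell and 15.3% rose with the block, and 4.37% and 3.72% in all 3 fits. The antagonist Grem1 (-2.48) and Id4 (-1.40) fell and Bambi, a pseudoreceptor, rose (1.54) in all 3 fits. Of 14 genes of LIF and STAT3 signalling, 3 fell and 1 rose, and the oncostatin M receptor Osmr fell in all 3 fits by 1.79.

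Epithelial genes rose more often than they fell. Of 27 tested, 12 rose, 6 of them in all 3 fits, and 2 fell. Cdh1 went from 31.8, 50.0 and 47.8 to 143, 125 and 99.8, a log2 change of 1.72 ± 0.17 (edgeR adjusted p = 0.000188). The tight junction claudin Cldn4 went from 1.36, 11.2 and 9.91 to 89.9, 72.2 and 172, and Cldn7, desmoplakin (Dsp), Rab25, a GTPase of epithelial recycling, and Epcam also rose in all 3 fits. The median of the list was 1.13, and 0.46 after GC correction. Krt18 (3.88), Krt8 (1.53) and Cldn3 (3.91) rose with the block only.

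Mesenchymal and matrix genes fell in part. Of 27 tested fibroblast and mesenchymal genes 7 fell and 3 rose (4 and 1 in all 3 fits). S100a4, a calcium-binding protein of motile cells, fell from 342, 339 and 507 to 25.2, 25.5 and 36.8, a log2 change of -3.55 ± 0.16 (edgeR adjusted p = 8.56e-06). The hyaluronan receptor Cd44 fell by 1.56, N-cadherin (Cdh2) by 1.11 and the collagen crosslinker Loxl2 by 0.97 in all 3 fits. Vim was at 1026 TPM or more in DMSO and at 707 or more in AA+2i and was not called. The summed TPM of the whole list was 2636 to 3696 in DMSO and 1588 to 1885 in AA+2i, with the fibroblast genes Lum, Dcn and Postn at or near 0 in both.

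Among 23 integrin and laminin genes 11 fell, 5 in all 3 fits, and 1 rose. Lamb1, the laminin β1 chain, went from 47.2, 102 and 42.5 to 6.89, 6.04 and 4.94, and Lama3, Lama4 and Itga9 fell by 2.14, 1.53 and 2.50. The abundant integrin chains Itgb1 (-1.10) and Itga6 (-1.09) fell with the block but not without it. Of 21 SRF and actin genes tested 4 fell and 2 rose, against 16.3% and 15.3% of all tested genes. The median log2 change of this list was -0.06. Vinculin (Vcl, -1.39), caldesmon (Cald1, -1.19) and tropomyosin 1 (Tpm1, -1.04) fell in all 3 fits, and Filip1l and Zyx rose.

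Among the enzymes that use ascorbate, nearly all falls were called with the block only, and none rose. Of 32 tested dioxygenases and ascorbate transporters 15 fell with the block, against 16.3% of all tested genes. Only 1, the collagen prolyl hydroxylase P4ha1, fell in all 3 fits, against 4.37% of all tested genes. P4ha1 went from 70.0, 84.3 and 45.5 to 31.9, 32.7 and 17.9 (log2 change -1.07 ± 0.12). Tet1, Tet2 and Tet3 fell by 1.21, 0.49 and 0.66 with the block, and Tet2 was not called after GC correction (edgeR adjusted p = 0.0889). Kdm3b, an H3K9 demethylase, went from 54.4, 67.5 and 47.7 to 45.1, 40.9 and 27.9, a log2 change of -0.38 ± 0.11 that was called with the block (edgeR adjusted p = 0.0308) and not without it (0.22). Of 14 DNA methyltransferases and partners 1 rose (Gadd45b, 1.41) and 1 fell, neither in all 3 fits. Of 19 Polycomb and NuRD subunits 5 fell and 1 rose, and Phf19 fell in all 3 fits (-1.04). Of 13 H3K9 methyltransferases and HP1 proteins 4 fell, Suv39h1 in all 3 fits (-0.71).

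Of 30 mitotic genes 18 fell with the block and none rose, and 4 fell in all 3 fits, namely Ect2 (-1.41 ± 0.25), Tpx2 (-0.98), Nek2 (-0.69) and Kif2c (-0.61). Mki67, a proliferation marker, was at 471, 318 and 201 in DMSO and at 186, 161 and 83.2 in AA+2i. Its letters fell in parallel, and it was called with the block (-0.98 ± 0.17, edgeR adjusted p = 0.00356) and not without it (0.184). Of 32 replication genes 8 fell and none rose, against 16.3% and 15.3% of all tested genes, and Mcm10 fell in all 3 fits (-0.63). Of 16 G1 cyclins and inhibitors 4 fell and 1 rose, 2 falling in all 3 fits. Cdk6, a G1 kinase, fell by 1.35 ± 0.14, from 64.6, 66.4 and 39.1 to 27.2, 18.8 and 12.8. The median of the mitotic list was -0.68, and -0.43 after GC correction.

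Among redox genes, 10 of 28 glutathione transferases and peroxidases rose and none fell, 5 rising in all 3 fits. These were Gstp2, Gpx2, a glutathione peroxidase of epithelia, Gstm3, Gstk1 and Gsta3. Gpx2 went from 0.12, 0.39 and 1.28 to 7.03, 6.71 and 5.39, a log2 change of 3.86 ± 0.58. The median of the list was 0.46, but 0.06 after GC correction. Of 20 NRF2 targets 10 rose and 1 fell, of which the quinone reductase Nqo1 alone rose in all 3 fits (1.58 ± 0.25). Of 8 tested aryl hydrocarbon receptor targets, Cyp1a1, Cyp1b1, Nqo1 and the receptor Ahr itself rose in all 3 fits and 2 fell. The xenobiotic oxidase Cyp1b1 went from 0.19, 0.13 and 0.19 to 2.57, 2.61 and 3.32, and Cyp1a1, with 3 counts in DMSO, reached 1.31, 1.89 and 3.58.

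Of all tested genes 15.3% rose and 16.3% fell with the block. Of 23 cholesterol synthesis genes 7 fell and none rose, and the demethylase Sc4mol fell in all 3 fits (-0.97). Of 30 glycolysis and hypoxia genes 7 rose and 7 fell, none in all 3 fits. Gapdh was at 1396, 4157 and 5884 in DMSO and 7644, 7137 and 7365 in AA+2i, with DMSO A far below the other controls, and it rose by 1.39 ± 0.39. Of 32 oxidative phosphorylation genes 7 rose and none fell, none of them in all 3 fits. Of 28 amino acid and ATF4 response genes 5 rose and 4 fell, shares near those of all tested genes. The cationic amino acid transporter Slc7a3 fell in all 3 fits (-1.65 ± 0.16) while Aldh1l2 rose (1.36). Of 20 p53 targets 3 rose and 7 fell, 1 of these (Ckap2) in all 3 fits.

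**Figure D4:**
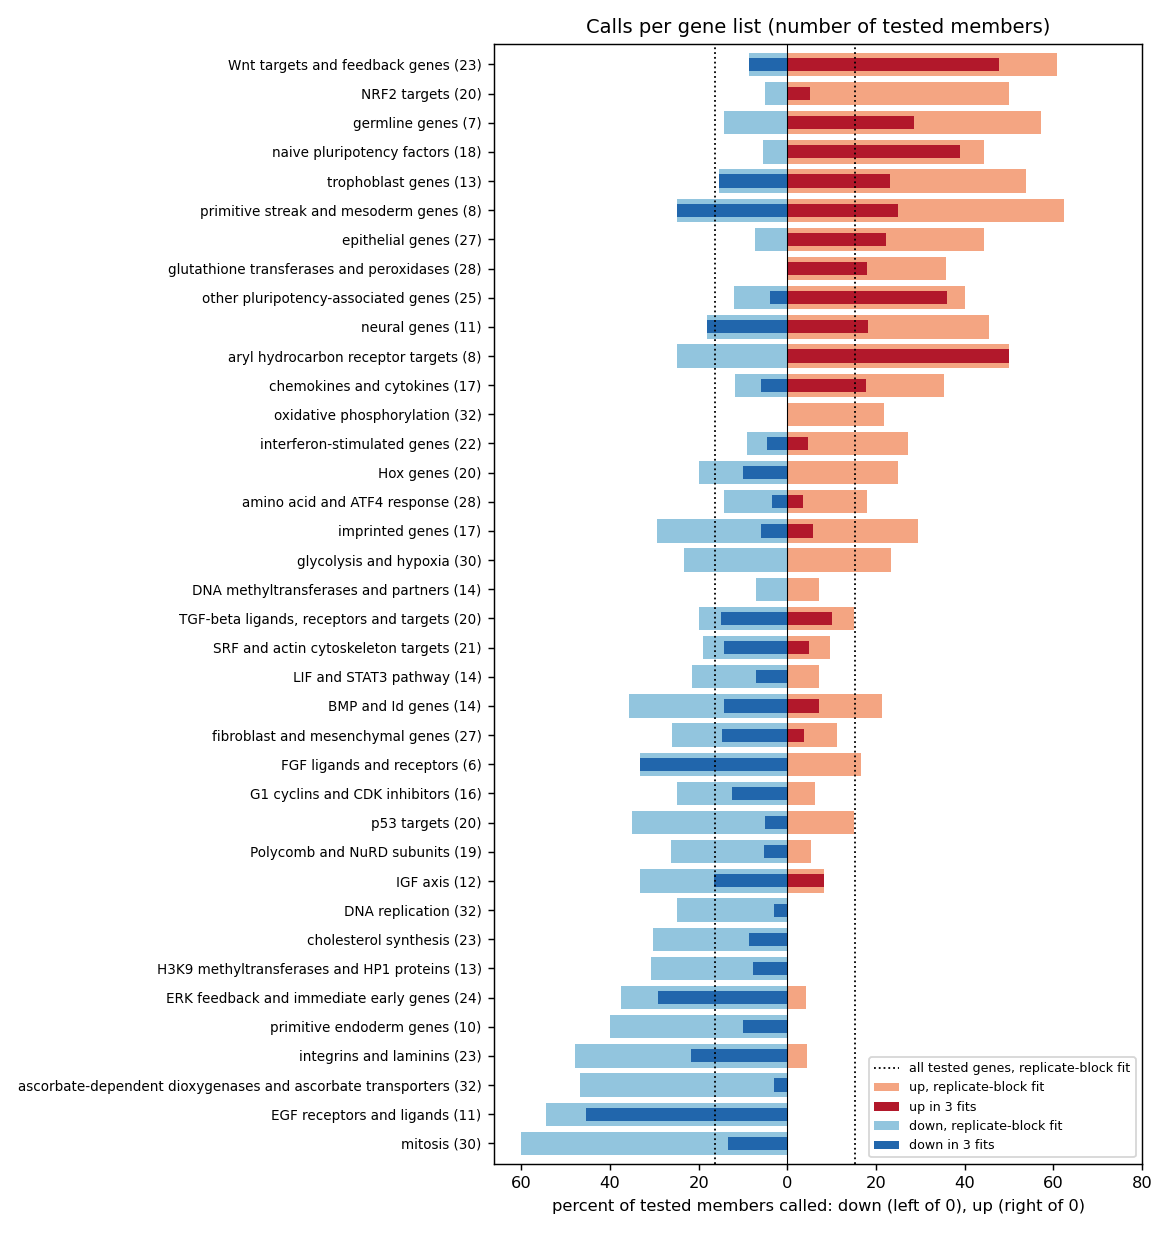
Percent of the tested members of each gene list that rose (right) or fell (left) with AA+2i, with wide pale bars for the fit with the block, narrow dark bars for the genes called in 3 fits, dotted lines for all tested genes (15.3% up, 16.3% down) and the number of tested members in brackets. Wnt targets, with 14 of 23 rising, lie at the top, and mitosis, with 18 of 30 falling, at the bottom, where the dark bar is far shorter than the pale one.

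Lineage genes moved in both directions. Of all tested genes 15.3% rose and 16.3% fell with the block, and 3.72% and 4.37% in all 3 fits. Of 13 trophoblast genes 7 rose and 2 fell (3 and 2 in all 3 fits). Gata2 went from 0.45, 1.78 and 1.69 to 9.91, 6.16 and 32.4, and Plac1, a placental gene with no count in DMSO, reached 0.76, 1.69 and 1.94 TPM. Tead4 (-0.80) and the T-box factor Eomes (-1.16) fell in all 3 fits. Of 11 neural genes, Otx2, a factor of primed pluripotency and forebrain, rose by 1.63 ± 0.19 and Zic1 by 1.42, while Nes fell (-1.02), all in 3 fits. Of 8 primitive streak and mesoderm genes 5 rose and 2 fell, with the homeobox gene Nkx1-2 at no more than 1.46 TPM. Of 10 primitive endoderm genes 4 fell and none rose, the laminin gene Lamb1 being the 1 that fell in all 3 fits. Of 20 Hox genes 5 rose and 4 fell, with Hoxd13 (-1.50) and Hoxd8 (-1.16) falling in all 3 fits.

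Of 22 interferon-stimulated genes 6 rose and 2 fell, against 15.3% and 16.3% of all tested genes. Oas2 fell (-1.84) and Irf9 rose (0.71) in all 3 fits. Of 17 chemokines and cytokines 6 rose and 2 fell, and Cxcl5, Cxcl16 and the interleukin 1 receptor antagonist Il1rn rose in all 3 fits by 3.10, 2.50 and 3.34, to at most 3.27 TPM for Cxcl5. Of 17 imprinted genes 5 rose and 5 fell, and Igf2 and Snrpn (-0.79) were the 2 called in all 3 fits.

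Some genes passed from off to on. In all 3 fits, 13 genes rose from under 0.5 TPM in every DMSO library to at least 2 TPM in every AA+2i library, namely Lyg1, Dppa3, Serpina3m, Sp5, Axin2, Mep1b, Gpr83, Rab25, Rai2, Tspan18, Cyp1b1, Rftn2 and Esrrb. The orphan receptor gene Gpr83 had no count in DMSO and 3.37, 2.38 and 5.77 TPM in AA+2i. In the other direction 5 genes went from at least 5 TPM in every DMSO library to under 1 TPM in every AA+2i library, namely Tac2, Lect1, Slc35d3, St8sia2 and Runx2, the last the master factor of bone formation.

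The single treatments were measured against the same 3 DMSO libraries, so the values stand side by side without a test of likeness. Dppa3 was at 0.80, 0.92 and 3.20 TPM with AA, at 0.12, 0.20 and 0.53 with 2i and at 9.18, 12.8 and 19.4 with both. Nanog was at 19.6, 16.8 and 17.1 with AA, at 6.92, 6.37 and 4.96 with 2i and at 37.1, 40.9 and 31.7 with both. For these genes the combination lay above both single treatments in every letter. Axin2 was at 0.22, 0.15 and 0.38 with AA, and at 3.50, 3.97 and 12.8 with 2i, close to the combination, and Dusp6 read 75.2, 58.0 and 59.9 under AA, whereas 2i gave 7.14, 6.68 and 6.85. Some genes stood lower with both than with AA. Dppa5a was at 1419, 1232 and 1665 with AA, at 26.2 or less with 2i and at 511, 763 and 747 with both. Otx2 was at 58.6, 55.8 and 91.9 under AA. It stood between the single treatments when both were given, at 12.4, 14.6 and 15.1, and was at 1.07, 1.26 and 1.98 under 2i. Igf2 was lowest with AA, at 1.84, 1.77 and 4.0, and reached 9.54, 7.29 and 24.5 with 2i. Cdh2 was at 22.9, 15.7 and 13.7 under AA, and under 2i at 50.2, 37.3 and 28.3, against 21.8, 19.6 and 10.2 with both.

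AA+2i was also tested against each single treatment in the same fit, where 400 genes (2.99%) were higher and 206 (1.54%) lower than with 2i, and 900 (6.72%) higher and 1092 (8.15%) lower than with AA. Cldn4 was above 2i by 3.08 and above AA by 3.04 on the log2 scale, Mylpf was among the genes with a higher level than with either, and Dkk1 passed against both. Zfp42 was 2.68 above 2i and 1.03 below AA. The difference of Dusp6 from 2i was -0.09 (edgeR adjusted p = 0.806), and that of Mdk from AA was 0.94 (0.369).

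**Figure D5:**
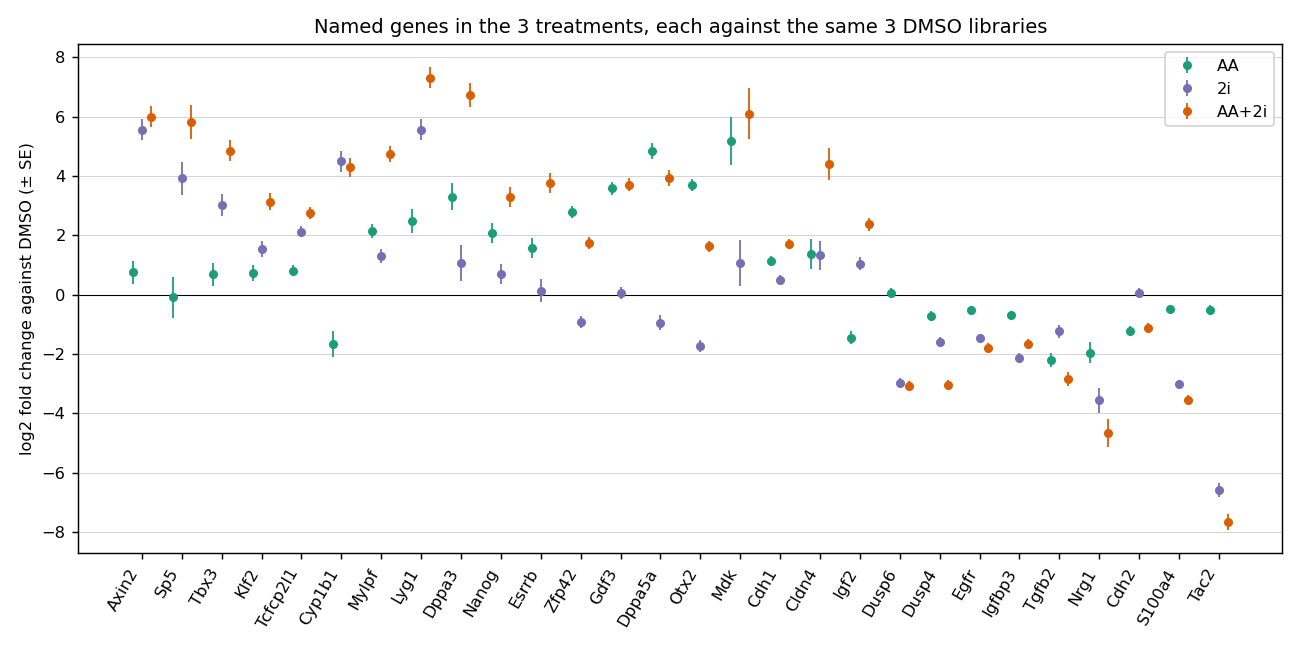
Log2 fold change against the same 3 DMSO libraries (± SE) of 28 named genes with AA (green), 2i (purple) and AA+2i (orange). Nanog, Dppa3 and Cldn4 have their highest value with AA+2i, Dppa5a, Zfp42 and Otx2 with AA, and for Dusp6 the 2i and AA+2i points lie together.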

How the data were processed

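RNA of pre-iPSCs treated for 48 h was sequenced as single-end TruSeq libraries without strand information, 3 biological replicates lettered A, B and C in each of 4 conditions. The authors trimmed the reads, filtered reads by quality, aligned them with Bowtie2 to the RefSeq genes of mm9 and quantified them with RSEM 1.2.4 (version from the submitters' processing notes). The authors deposited, per library, expected counts, which are not normalized, and TPM, scaled to the library, beside FPKM, which the authors deposited too and which served here only to recompute 1 malformed TPM cell outside the 6 libraries compared. Genes on opposite strands cannot be told apart.

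Expected counts were rounded and fitted in edgeR 4.0.16 (R 4.3.3) by quasi-likelihood with RLE factors over all 12 libraries, the replicate letter as a block, and 6 residual degrees of freedom. Genes needed 10 counts in 3 libraries (13400 of 20325). Adjusted p is by Benjamini and Hochberg, called under 0.05, and the SE is the log2 change divided by the square root of F, so it restates the test. The GC correction entered a loess curve (span 0.4) of each library's deviation against transcript GC, known for 13300 genes, as an offset. The model was tested on simulated data with 200 changed genes. The simulation gave each gene a letter effect shared by all 4 conditions, and no GC bias, unlike these libraries. It cannot show how the model behaves on them in those respects. Alternatives were TMM, DESeq2 1.42.0, limma 3.58.1 on log2(TPM + 1) and on log2(TPM + 0.1), other count filters, only the 6 libraries, no block, and leaving out each letter. EBSeq, which the study used, was not run.

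Genes named are the 15 largest rises and 15 largest falls called with and without the block, moving the same way in the 3 letters and reaching 5 TPM in the higher group, the 8 largest gains and 8 largest losses in TPM, members of 39 gene lists, and 10 genes the study examined. The members, lists and tests were chosen with earlier results of these data known. Symbols were matched to the NCBIM37 (mm9) annotation, and promoters to RefSeq windows on GRCm38.p6, 1 window per gene, for 10689 tested genes. Counting noise is larger below 1 TPM, where a library held few counts. Some genes of the lists are counted but not reported here by name.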

Additional observations from a re-analysis of the deposited data

How the results depend on the processing

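The counts of rising and falling genes were 2051 and 2178 with the replicate block. They moved most when only the 6 libraries were fitted or letter C was left out. The shift was smaller without the block, and smaller still without letter A or letter B. Deviations from the group means correlated at 0.17, -0.59 and 0.53 between DMSO and AA+2i of the same letter. AA+2i B deviated most like the letter A libraries (0.69 with DMSO A and 0.77 with AA A). Between these groups the letters therefore did not behave as pairs. Over all 4 conditions, pairs of the same letter averaged 0.4 (18 pairs, -0.59 to 0.89). Pairs of different letters averaged -0.2 (36 pairs, -0.83 to 0.77). The block was kept because the comparison specifies it. Without the block 526 rose and 591 fell, 458 and 488 of them at least 2-fold. In the 6 libraries alone the counts were 228 and 200 with the block, all at least 2-fold, with 2 residual degrees of freedom, and 310 and 291 without it, again all at least 2-fold (chosen after seeing the data). Limma called 1167 up and 3400 down on log2(TPM + 1), with 514 of the rises at least 2-fold, and 1189 up and 3449 down on log2(TPM + 0.1), with 809 and 1340 at least 2-fold. GC correction with the block left 819 rises of at least 2-fold against 1268, with 960 falls against 843, so the larger count changed from rises to falls. GC correction without the block, also added later, gave 1015 up and 1276 down, 653 rises being at least 2-fold. Leaving out 1 letter gave 210 to 3454 rising and 185 to 3342 falling genes, lowest without C and highest without B, and 210 to 2658 rises and 185 to 1195 falls of at least 2-fold. The genes called in 3 fits ranged from 4 to 315 rising and from 14 to 346 falling when 1 letter was left out, an alternative added after seeing the data, lowest without B. The cause was not tested. TMM, DESeq2 and both count filters stayed within 1.5 times of all 4 counts.

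The log2 changes of 192 named genes were followed through the 14 alternatives. No called gene changed direction. Fos, which was not called (-0.18), was positive without the block (0.72), in the 6 libraries without it (0.72), after GC correction without the block (0.58), without letter A (0.89) and without letter B (0.46), and was -1.77 without letter C. Of 2625 values, 2334 stayed on their side of the threshold, 281 called values no longer passed, 5 others now passed and 5 were those of Fos. Losses were most frequent without letter C (76 genes) and in the 6 libraries with the block (74), against 17 without the block over all libraries and 3 after GC correction with the block. Genes below 1 TPM rest on few counts, and their size of change is poorly determined.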

Other observations

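Families below were taken by symbol after their values were seen, so their counts are descriptions. Of all tested genes 15.3% rose and 16.3% fell with the block, and 3.72% and 4.37% in all 3 fits. Of 11 tested claudins, the strands of tight junctions, 4 rose and 5 fell, which the epithelial list did not show. Cldn23 rose with Cldn4 and Cldn7 in all 3 fits, from 1.53, 2.47 and 0.79 TPM in DMSO to 5.30, 5.18 and 6.45 in AA+2i. Cldn10 and the abundant Cldn11 fell, the latter from 336, 408 and 174 to 146, 111 and 117. Of 10 aldo-keto reductases, Akr1c18, which inactivates progesterone, rose by 4.09 on the log2 scale, to 28.1 TPM at most, and Akr1b8 and Akr1c13 rose as well, while Akr1c14 fell from 157, 99.3 and 107 to 20.1, 21.3 and 12.4. The Akr1c genes lie in 1 cluster of close copies. Of 10 S100 genes, 2 rose and 5 fell with the block, and 4 fell and none rose in all 3 fits. S100a3, a neighbour of S100a4 in the same cluster, fell from 57.4, 150 and 234 to 10.1, 15.4 and 23.1, and S100a16 from 26.5, 39.1 and 44.0 to 8.98, 9.62 and 9.84.

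Of 235 solute carriers, 35 rose and 33 fell with the block, against 15.3% and 16.3% of all tested genes. In all 3 fits 17 rose and 12 fell, against 3.72% and 4.37% of all tested genes. The iron exporter Slc40a1 (ferroportin) rose from 10.3, 7.65 and 10.2 TPM to 60.9, 72.0 and 41.9, a log2 change of 2.84 ± 0.26, and the zinc and iron importer Slc39a14 fell from 72.8, 131 and 71.5 to 32.5, 36.0 and 22.8. The amino acid transporter Slc7a8 rose by 3.30, whereas its relative Slc7a6 fell by 1.29. Slc17a6, the vesicular glutamate transporter, fell by 2.92. Of 76 ribosomal protein genes 28 rose and none fell with the block, 2 of them in all 3 fits, and the median of 0.59 became 0.43 after GC correction. Of 343 genes named Zfp, 72 fell and 19 rose with the block, against 3 and 6 in all 3 fits, with a median of -0.25 that became -0.10 after GC correction. Of 11 Oas genes, which are close copies, 2 rose and 4 fell with the block. In all 3 fits 4 of them fell and none rose.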
